A study of Mus musculus with 22 samples.

Results

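The 10 genes described here belong to the alveolar surfactant system and were followed in mouse lungs 24 hours after instillation of carbon nanotubes. The genes encode the surfactant proteins (Sftpa1, Sftpb, Sftpc and Sftpd) and the proteins with which the type II alveolar cell processes, stores and regulates surfactant (Napsa, Abca3, Lamp3, Lpcat1, Nkx2-1 and Slc34a2). They were chosen by name, through the RefSeq accession that the array design gives each probe. No rule on their values was used, though earlier results of these data were known. They number 10 of 20018 named genes and have 12 of the 55681 probes.

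Dual-colour Agilent arrays were run on RNA from the right lung of 22 female C57BL/6 mice, 8 weeks old when the experiment began. Mice received a single intratracheal instillation of Mitsui7, a multi-walled carbon nanotube, at 18 µg (n = 6), 54 µg (n = 5) or 162 µg (n = 6), and control mice (n = 5) received the vehicle of 0.9% NaCl with 10% acellular lavage fluid that all groups shared. Anaesthesia with Hypnorm and Dormicum, the volume instilled (40 µl) and collection at 24 hours were also the same in all groups. Lung RNA carried Cy5, and Universal Mouse Reference RNA, a pool from 11 cell lines that was the same on every array, carried Cy3. Each value is thus a log2 ratio of lung over reference, normalized within its array.

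Surfactant is a film of phospholipid and protein that lowers surface tension in the alveolus. Type II cells make it, pack it into lamellar bodies and secrete it, and alveolar macrophages and the type II cells themselves take it up again. Surfactant proteins B and C are small hydrophobic proteins that spread the lipid film, whereas surfactant proteins A and D are collectins that bind microbes and particles. NKX2-1 is the lung homeodomain factor that drives transcription of the surfactant protein genes.

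All 12 probes passed the filter on expression, and their Cy5 signal was well above background on 22 of 22 arrays, so that these markers of type II cells were detected in every lung sample. In the Cy3 channel, 10 of the 12 probes were well above background on all arrays, whereas the Nkx2-1 probe was so on 18 arrays and the Slc34a2 probe on 21. The ratios of Nkx2-1 in control 4 and in mice 3, 4 and 5 of the 18 µg group, and that of Slc34a2 in control 4, therefore have a reference signal near background. Lung tissue holds many cell types, so fewer type II cells and less RNA per type II cell cannot be told apart here. Across arrays, 52.1% to 83.5% of probes lay above background. The arrays lay on 7 slides of 3 or 4 arrays, of which 2 held no control, and slide was a term in the fit.

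RefSeq promoter windows (GRCm38.p6, 250 bases before to 50 after the start site) were listed for 7 of the 10 genes. Windows of Sftpc, Sftpd and Napsa were not used here. Each window was searched on both strands for the NKX2-1 core CTCAAG and its shorter form CAAG, the FOXA core TGTTTAC, the GATA core AGATAA and the ETS core CCGGAAG. Since CTCAAG contains CAAG, every match of the longer motif is also one of the shorter. Windows of 3 genes are shown. Sftpa1 and Sftpb are the surfactant protein genes with a listed window, and their ratios varied together from array to array, whereas the ratio of Lamp3 did not follow theirs. Slc34a2, whose window held neither CTCAAG nor CAAG, also followed Sftpa1 and Sftpb (r = 0.69 and 0.55). The ratios of Sftpa1 and Sftpb followed the Cy3 reference signal (r = -0.82 and -0.81) more than the Cy5 lung signal (0.28 and 0.10). The reference RNA was the same on every array. A link between these motifs and the shared variation was not tested. Capitals mark CTCAAG in Sftpa1 and Sftpb and TGTTTAC in Lamp3.
Sftpa1 (surfactant protein A), chr14:41131538-41131837, plus strand: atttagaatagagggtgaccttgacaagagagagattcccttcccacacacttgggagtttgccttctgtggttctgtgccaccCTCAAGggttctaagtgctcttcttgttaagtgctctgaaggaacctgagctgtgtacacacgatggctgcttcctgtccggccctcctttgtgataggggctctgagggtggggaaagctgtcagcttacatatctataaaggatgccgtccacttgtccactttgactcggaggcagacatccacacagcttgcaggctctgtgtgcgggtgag
Sftpb (surfactant protein B), chr6:72304360-72304659, plus strand: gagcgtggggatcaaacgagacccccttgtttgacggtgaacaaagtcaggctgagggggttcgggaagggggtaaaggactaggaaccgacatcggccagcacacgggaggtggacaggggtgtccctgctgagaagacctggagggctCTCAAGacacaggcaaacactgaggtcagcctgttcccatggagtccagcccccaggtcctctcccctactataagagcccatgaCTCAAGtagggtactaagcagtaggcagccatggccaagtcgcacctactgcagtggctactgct
Lamp3 (lysosome-associated membrane protein 3, found on lamellar bodies), chr16:19706316-19706615, minus strand: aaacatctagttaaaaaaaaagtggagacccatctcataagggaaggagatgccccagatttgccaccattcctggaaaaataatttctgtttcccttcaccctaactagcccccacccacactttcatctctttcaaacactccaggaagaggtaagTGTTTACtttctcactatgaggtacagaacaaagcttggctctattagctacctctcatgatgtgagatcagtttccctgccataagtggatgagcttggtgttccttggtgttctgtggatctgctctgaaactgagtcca

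CTCAAG was present in 2 of the 7 windows, once in Sftpa1 (beginning 166 bases before the start site) and at 2 places in Sftpb (100 and 15 bases before it), and in 15.9% of all 32851 promoter windows of the same length. The shorter CAAG was in 5 of the 7, those of Abca3, Lamp3, Nkx2-1, Sftpa1 and Sftpb, against 90.6% of all windows. TGTTTAC was in the Lamp3 window alone among the 7 (3.65% of all windows). AGATAA, held by 11.2% of all windows, and CCGGAAG, held by 8.86%, were in none of the 7. A match of letters is a description of these windows, not a measured binding site.

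Across the 3 doses, 1 comparison of these genes with control passed the test. Napsa, which encodes napsin A, the aspartic protease that trims the surfactant protein B precursor, was higher at 162 µg by 0.72 on the log2 scale (standard error 0.19, adjusted p = 0.0356 in limma). None of the 10 genes was called at 18 µg, against 2.06% of 16433 expressed genes, and none at 54 µg, against 0.353%. At 162 µg the 1 called gene of 10 stood against 6.85% of all expressed genes. A call required 1.5-fold or more beside an adjusted p no higher than 0.05. At an unadjusted p under 0.05 the numbers were 2 of 10 at 18 µg (22.3% of all expressed genes), 0 of 10 at 54 µg (13.8%) and 1 of 10 at 162 µg (28.8%).

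In order of dose, the median log2 fold change of the 10 genes was 0.20, -0.03 and 0.09, beside medians over all expressed genes of -0.02, -0.01 and -0.01. Estimates lay above 0 for 8 genes at 18 µg, 3 at 54 µg and 7 at 162 µg. With median centring or without normalization the level of all genes moved with that of the group. This was not so in the Cy5 channel alone, where at 54 µg the median of the 10 genes was 0.24 and that of all genes 0.01. When each array was centred on its median instead of by loess, the medians of the 10 genes were -0.19, -0.09 and -0.11 while those of all expressed genes moved to -0.26, -0.04 and -0.18. Relative to all genes, the 10 genes then differed by 0.06, -0.05 and 0.08 in order of dose. The difference from all genes was computed under 7 scalings. For 18 µg it lay between 0.06 and 0.23, above 0 under each. For 54 µg the lowest was -0.10 and the highest 0.23, and for 162 µg they were -0.02 and 0.10. These scalings are not 7 separate checks. Quantile normalization of average intensities repeated the loess difference at every dose (0.22 at 18 µg). Median centring and no normalization shared 1 value at 18 µg (0.06) and 1 at 54 µg (-0.05). The 95% interval of the fold change included 0 for 8 genes at 18 µg, 10 at 54 µg and 9 at 162 µg. The limits of these intervals ranged from -0.57 to 1.02 at 18 µg, from -1.18 to 0.70 at 54 µg and from -0.68 to 1.13 at 162 µg.

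A complete separation from the controls was rare in the group. None of the 10 genes had every mouse above or every mouse below all controls at 18 µg, where 3.4% of all expressed genes did, and none at 54 µg (3.3% of all expressed genes). At 162 µg 2 of the 10 did, Sftpd and Napsa, both above, against 8.19% of all expressed genes. For Sftpd this held on the brighter probe, against the 4 controls with a value. On its second probe 4 of 5 mice at 162 µg lay above all 5 controls.

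**Figure D1:**
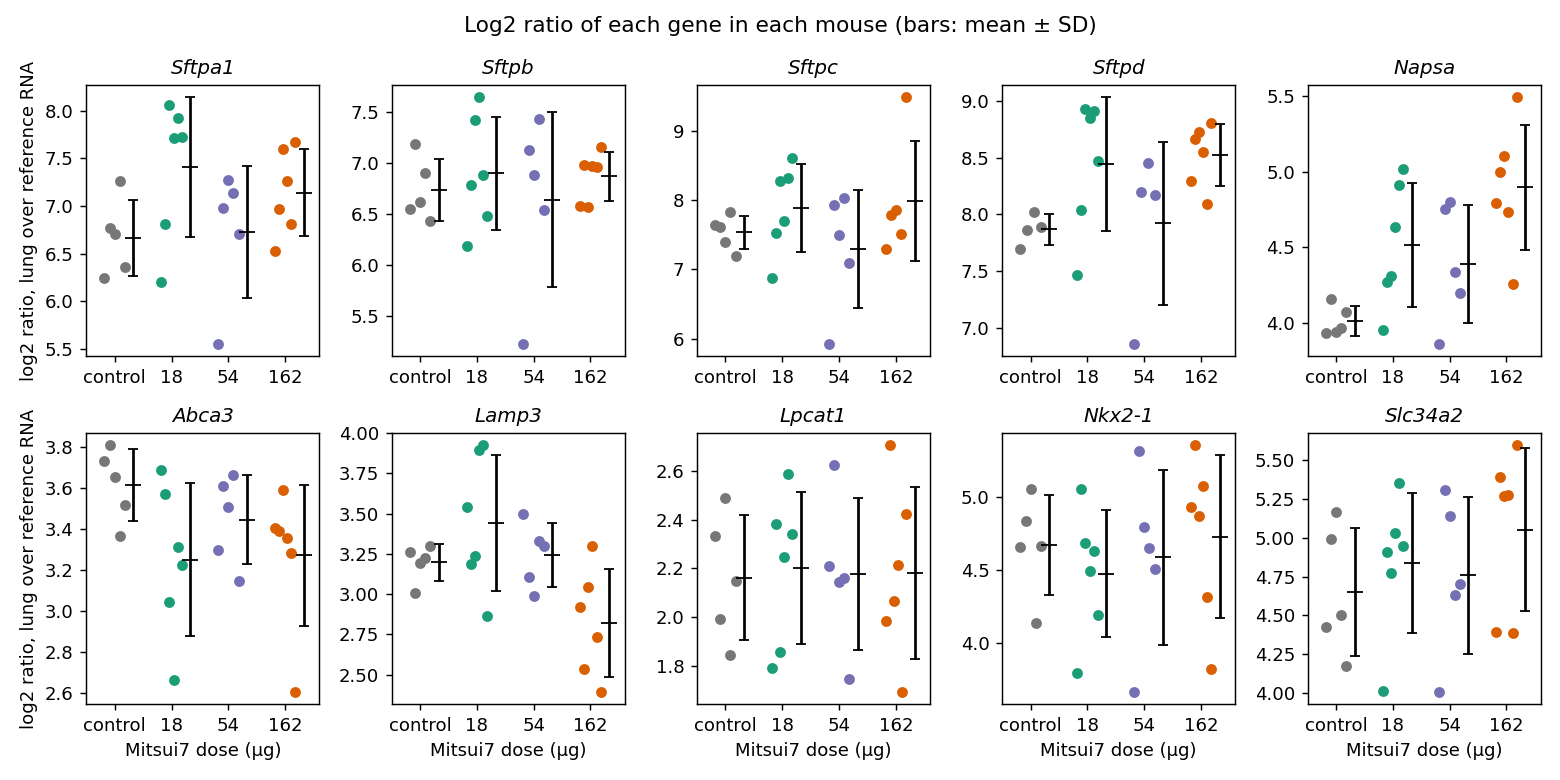
Log2 ratio of lung over reference RNA (vertical axis) in each mouse at each dose in µg (horizontal axis), with the mean and SD of the group as bars, 1 panel per gene on the brightest probe. All 6 Napsa ratios at 162 µg, from 4.26 to 5.49, lie above the 5 controls, and the first mouse of the 54 µg group is the lowest of all mice in 7 of the 10 panels.

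The surfactant protein genes did not pass the test at any dose. Sftpa1, the collectin surfactant protein A, had log2 ratios of 6.25, 6.76, 6.71, 7.26 and 6.36 in the 5 controls. At 18 µg they ran from 6.20 through a median of 7.72 to 8.06. At 54 µg they were 5.55, 6.98, 7.28, 7.14 and 6.70, and at 162 µg they ran from 6.52 through 7.12 to 7.68. In the 18 µg group 4 of 6 mice lay above all controls and 1 below all of them, so the groups overlapped. Its log2 fold change at 18 µg was 0.61 (95% interval 0.19 to 1.02, unadjusted p = 0.00647, adjusted p = 0.131 in limma). At 54 µg it was -0.03 (adjusted p = 0.990) and at 162 µg 0.17 (adjusted p = 0.761). Within the 4 slides that held both groups, the 18 µg mouse was higher than the control on 3 and the differences ran from -0.04 to 1.57. The difference of the 162 µg from the 18 µg mice, tested itself, was -0.44 (adjusted p = 0.235).

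Sftpd, the other collectin, had 2 probes. On the brighter one the 4 controls with a value had log2 ratios of 7.69, 7.87, 8.02 and 7.89, whereas the 162 µg mice ran from 8.09 through 8.61 to 8.80. All 6 of the 162 µg mice thus lay above these 4 controls, whereas on the second probe 4 of 5 lay above all 5 controls. At 18 µg the ratios ran from 7.47 through 8.66 to 8.92, with 5 of 6 mice above the controls and 1 below. Within the 3 slides with both values the 162 µg mouse was higher on all 3, by 0.43 to 0.84. The difference at 162 µg did not pass the test, with a log2 fold change of 0.34 (95% interval -0.10 to 0.78, adjusted p = 0.439). That value ranged from 0.14 (without control 4) to 0.57 (without control 1) with single mice left out, and from -0.02 to 0.78 under the other processing settings, with adjusted p from 0.0543 to 1. The fit took no value of control 5 and of the second 54 µg mouse, whose spots carried outlier flags. On the second probe the fold changes were 0.78 at 18 µg (adjusted p = 0.174), 0.23 at 54 µg and 0.57 at 162 µg (adjusted p = 0.350), in the same order as on the first. At 54 µg the estimate was -0.09 on the brighter probe, so the probes differed in sign there.

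Sftpc encodes surfactant protein C, which type II cells alone are known to make. Its ratios were 7.63, 7.61, 7.40, 7.82 and 7.19 in controls, 6.88 to 8.60 with a median of 7.99 at 18 µg, and 5.92, 7.93, 7.49, 8.02 and 7.09 at 54 µg. At 162 µg the 5 mice with a value had 7.30, 7.78, 7.85, 7.51 and 9.48, and the second mouse, with an outlier flag, had none. Fold changes were 0.24, -0.42 and 0.19 on the log2 scale, with standard errors of 0.34, 0.36 and 0.36 that were the widest among the 10 genes. Its Cy5 signal was between the first and the third brightest of all probes on every array and spanned only 1.68-fold between the dimmest and the brightest array, whereas that of the other 9 genes spanned from 6.32-fold to 12.9-fold. No spot carried a saturation flag. A lung signal that varied so little between arrays limits what the Sftpc fold changes can show about dose. Whether the signal was at a ceiling was not tested.

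Sftpb encodes surfactant protein B, without which the lipid film does not form. On its brighter probe the controls spanned 6.43 to 7.19. The 18 µg mice spanned 6.19 to 7.65, the 54 µg mice 5.22 to 7.44 and the 162 µg mice 6.57 to 7.16, so that each treated group overlapped the controls. The log2 fold changes were 0.13 (95% interval -0.41 to 0.67), -0.13 (-0.70 to 0.45) and -0.07 (-0.61 to 0.47), and on the second probe 0.06, -0.03 and 0.23.

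Napsa was the member that passed the test. Its log2 ratios were 3.93, 4.16, 3.94, 3.97 and 4.07 in controls, with an SD of 0.10, and 3.86, 4.75, 4.80, 4.34 and 4.20 at 54 µg. They ran from 3.96 through a median of 4.47 to 5.02 at 18 µg and from 4.26 through 4.90 to 5.49 at 162 µg. All 162 µg mice lay above the controls. At 18 µg 5 of 6 mice did and 1 lay within their range, and at 54 µg 4 of 5 did and 1 lay below them. The log2 fold change of 0.72 at 162 µg had a 95% interval of 0.31 to 1.13. That at 18 µg was 0.43 (standard error 0.19, adjusted p = 0.297), and that at 54 µg was 0.26 with a standard error of 0.21 (adjusted p = 0.824). The 162 µg mice did not pass the test against the 18 µg mice (difference 0.29, adjusted p = 0.490), so the doses were not shown to differ. Within the 4 slides that held both a control and a 162 µg mouse, the difference was 0.64, 1.06, 1.14 and 0.19, higher on all 4. In the Cy5 channel alone, scaled to each array's 75th percentile, it was 0.71 (adjusted p = 0.0639). With arrays centred on their median it was 0.39 (adjusted p = 0.519), without normalization it was 0.37 (adjusted p = 1), and it was 0.69 in the deposited log2 values (adjusted p = 0.0587). None of these passed the test.

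The call of Napsa at 162 µg depended on single mice. It was lost without control 2 (adjusted p = 0.0512), control 3 (0.147), control 4 (0.101) or control 5 (0.0823), and without the 162 µg mice 1 (0.0959), 2 (0.0861), 3 (0.115) or 6 (0.0639), with a log2 fold change between 0.60 and 0.77 in these 8 fits. At the same dose the list of other type II cell markers had 1 of 20 genes called, Ctsh. The pan epithelial list had 1 of 11, Krt7, and the type I list 1 of 12, Pdpn, all 3 higher. Over all expressed genes the share called at this dose was 6.85%. The mean log2 ratio of the 11 pan epithelial genes ranged from 1.71 to 2.03 in controls and from 1.65 to 2.68 at 162 µg, and that of 12 type I genes from 3.80 to 4.22 and from 3.97 to 4.64. The part of these cell types in the change of Napsa was not tested.

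**Figure D2:**
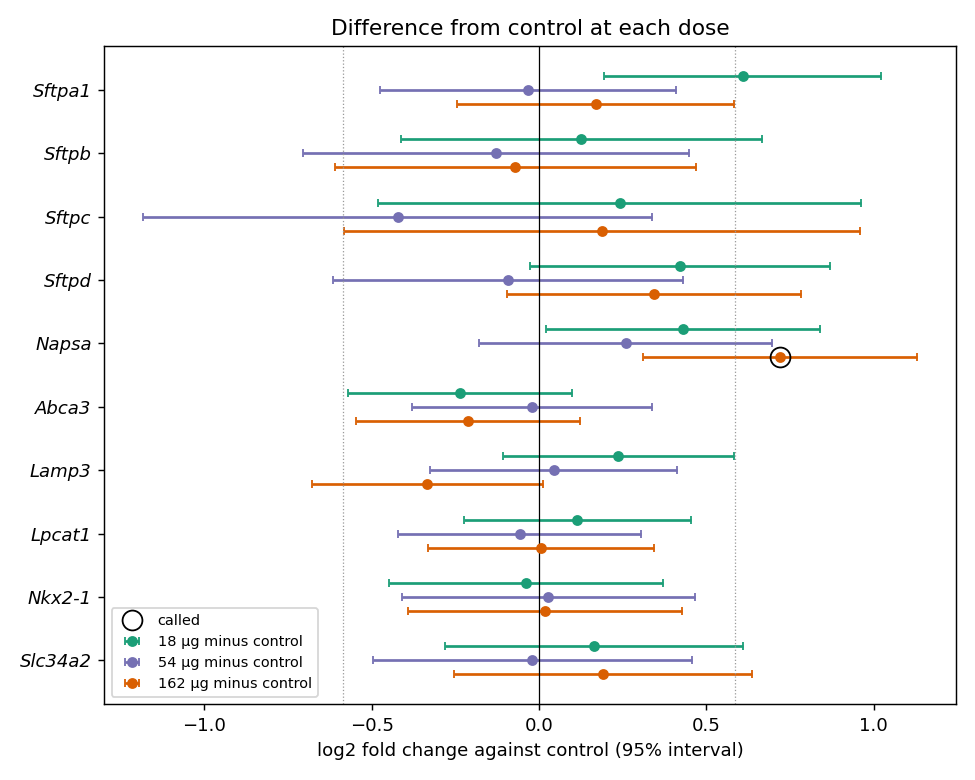
Log2 fold change against control (horizontal axis) for each gene (vertical axis) at 18, 54 and 162 µg, with 95% intervals from the limma fit, dotted lines at 1.5-fold and a ring around the 1 called comparison. Napsa at 162 µg, at 0.72, is ringed, and the intervals of Sftpc are the widest.

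Abca3 and Lamp3 belong to the lamellar body. Abca3 encodes the transporter that moves phospholipid into it, and Lamp3 a protein of its limiting membrane. Ratios of Abca3 were 3.73, 3.81, 3.65, 3.36 and 3.51 in controls and ran from 2.66 through 3.27 to 3.69 at 18 µg, from 3.14 through 3.51 to 3.66 at 54 µg and from 2.60 through 3.37 to 3.59 at 162 µg. No treated mouse lay above all controls, 4 of 6 at 18 µg, 2 of 5 at 54 µg and 3 of 6 at 162 µg lay below all of them, and the groups overlapped. The fold changes of -0.24 (adjusted p = 0.534), -0.02 (0.993) and -0.21 (0.568) did not pass the test.

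Lamp3 stood at 3.26, 3.00, 3.20, 3.22 and 3.30 in controls. At 162 µg it ran from 2.39 through 2.83 to 3.30, with 4 of 6 mice below all controls, and at 18 µg from 2.86 through 3.39 to 3.93, with 3 of 6 above and 1 below. Against control the log2 fold changes were 0.24 at 18 µg (adjusted p = 0.551), 0.04 at 54 µg (0.985) and -0.33 at 162 µg (95% interval -0.68 to 0.01, adjusted p = 0.302). The 162 µg mice were lower than the 18 µg mice by a log2 difference of -0.57 (standard error 0.15, adjusted p = 0.0437), which is short of the 1.5-fold threshold, so 0 of the 10 genes were called in this comparison, in which 4.98% of all expressed genes were. The difference was -0.38 with median centring (adjusted p = 0.924) and -0.23 without normalization (adjusted p = 0.942). Within slides, Lamp3 was above its control on 4 of 4 slides at 18 µg (0.01 to 0.63) and below it on 4 of 4 at 162 µg (-0.66 to -0.09).

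Lpcat1, Nkx2-1 and Slc34a2 did not pass the test at any dose. Lpcat1 encodes the acyltransferase that remodels phosphatidylcholine to its saturated surfactant form. The controls spanned log2 ratios of 1.85 to 2.49, the 18 µg mice 1.79 to 2.59, the 54 µg mice 1.75 to 2.62 and the 162 µg mice 1.69 to 2.71, with fold changes of 0.11, -0.06 and 0.01. For Nkx2-1 the controls spanned 4.14 to 5.05, and the treated groups, in order of dose, 3.79 to 5.05, 3.67 to 5.31 and 3.82 to 5.35. Its fold changes were -0.04 (95% interval -0.45 to 0.37), 0.03 (-0.41 to 0.47) and 0.02 (-0.39 to 0.43). Slc34a2, the phosphate cotransporter that type II cells carry at their apical side, ran from 4.18 to 5.17 in controls and from 4.39 to 5.60 at 162 µg, where 4 of 6 mice lay above all controls. Its fold changes of 0.17, -0.02 and 0.19 had adjusted p of 0.783, 0.995 and 0.746.

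From array to array, the log2 ratios of the 4 surfactant protein genes varied together, with a median r of 0.76 for the ratios, 0.74 for the reference channel alone and 0.42 for the lung channel alone. Over the 22 arrays the 6 correlations among their log2 ratios had Pearson r of 0.66 to 0.90 (19 to 22 arrays each), the highest being that of Sftpa1 with Sftpd. On deviations from the group means r was 0.66 to 0.91. Napsa had r = 0.75 with Sftpd, 0.70 with Sftpc, 0.65 with Sftpa1 and 0.35 with Sftpb, the last near the median of all pairs. Slc34a2 had r from 0.55 (Sftpb) to 0.74 (Sftpd) with them. Abca3 and Lamp3 had r from -0.49 to -0.05 in their 8 pairings with surfactant protein genes. Among all 45 pairs r ranged from -0.49 to 0.90 with a median of 0.34. These are descriptions over arrays that share slides, the reference RNA and the normalization.

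**Figure D3:**
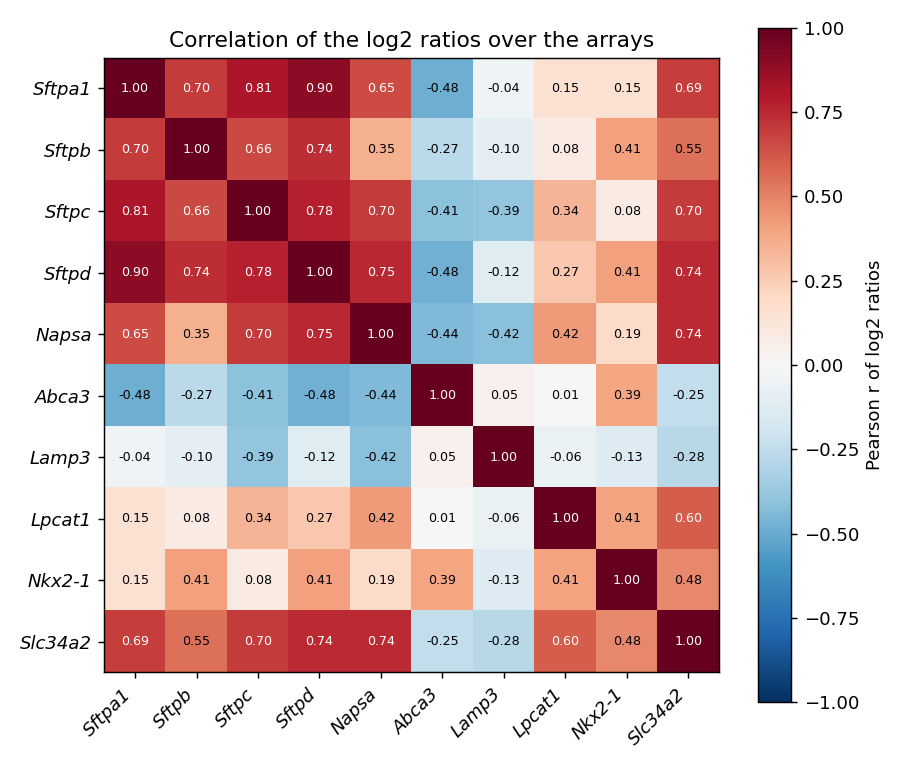
Pearson r of the log2 ratios of each pair of the 10 genes over 19 to 22 arrays, with colour from -1 (blue) to 1 (red). The surfactant protein genes are red with each other and with Slc34a2, Sftpb is paler with Napsa (0.35), and Abca3 and Lamp3 are below 0 with the surfactant protein genes.

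The spread of these ratios lay in both colours. With each channel scaled to its array's 75th percentile, the SD within groups for Sftpa1 was 0.23 in Cy5, which carries the lung RNA, and 0.57 in Cy3, which carries the same reference on every array. For Sftpb it was 0.26 and 0.55, for Sftpd 0.31 and 0.42, and for Sftpc 0.56 and 0.74. Before this scaling the Cy5 signal of Sftpc spanned only 1.68-fold over the arrays, so its SD of 0.56 also carries the spread of the array percentiles. The ratio of Sftpa1 had r = -0.82 with its Cy3 signal and 0.28 with its Cy5 signal, and that of Sftpb -0.81 and 0.10. The opposite held for Abca3 (SD 0.41 in Cy5 and 0.24 in Cy3) and Lamp3 (0.35 and 0.19), whose ratios followed Cy5 with r = 0.86 and 0.90. For Napsa the SD was 0.37 in Cy5 and 0.29 in Cy3, and r was 0.79 and 0.04. Among the surfactant protein genes the 6 correlations had a median of 0.76 for the ratios, 0.42 (0.01 to 0.76) for Cy5 and 0.74 (0.49 to 0.81) for Cy3. The part of the reference channel in the shared variation was not tested further. In Cy5 alone the log2 fold changes of Sftpa1 were 0.34 at 18 µg (adjusted p = 0.202), 0.26 at 54 µg and 0.08 at 162 µg.

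**Figure D4:**
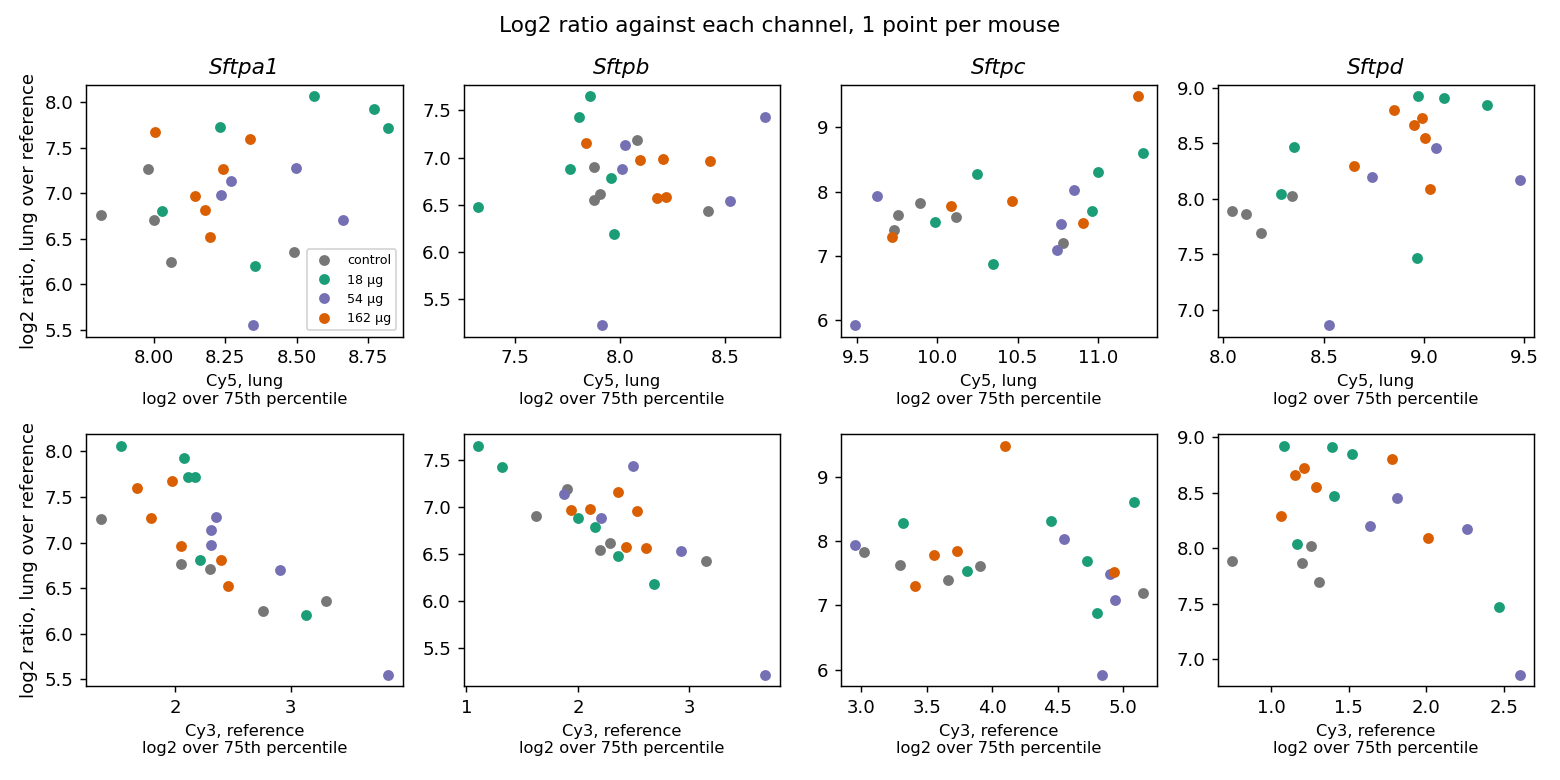
Log2 ratio (vertical axis) of the 4 surfactant protein genes against the Cy5 lung signal (upper row) and the Cy3 reference signal (lower row), each as log2 over its array's 75th percentile, 1 point per mouse, coloured by dose group. For Sftpa1 and Sftpb the ratio falls as the Cy3 signal rises, with r of -0.82 and -0.81.

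Single arrays stood at the ends of these distributions. The first 54 µg mouse had the lowest ratio of all 22 for Sftpa1, Sftpb, Sftpc, Sftpd, Napsa, Nkx2-1 and Slc34a2. Its 4 surfactant protein genes had a mean deviation from the control mean of -1.31 on the log2 scale. The first 18 µg mouse (-0.52) and the first control (-0.17) shared its slide, and the median deviation was -0.02 over the controls and, in order of dose, 0.70, 0.26 and 0.45 over the treated groups. Without this 54 µg mouse, the log2 fold changes at 54 µg became 0.07 for Sftpa1, 0.15 for Sftpb, -0.19 for Sftpc, 0.10 for Sftpd and 0.30 for Napsa, none of them called. The sixth 162 µg mouse was the lowest for Abca3 (2.60) and Lamp3 (2.39) and the highest for Sftpc (9.48) and Napsa (5.49). Its array was dim, with the lowest median Cy5 signal of all (82) and 53.5% of probes above background, on a slide without a control. Its Cy5 signal for Sftpc (357747) was the dimmest of all arrays although its ratio was the highest. The part of array brightness in these values was not tested.

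The 10 genes outside the group whose ratios were most like the mean standardized ratio of the group were Hopx (r = 0.91), Esam (0.89), Egfl7 (0.89), Cldn3 (0.87), Cldn5 (0.87), Tbx2, Elapor1, Chil1, Ear2 and Gpx3 (0.83), out of 14969 genes with a value on all 22 arrays. Hopx is a type I cell factor, Chil1 a marker on the type II list, and Esam, Egfl7 and Cldn5 are known from endothelium. None of the 10 was called at any dose, with log2 fold changes from -0.33 to 0.45. For Cldn3 and Ear2 the ratio moved with Cy3 (r = -0.83 and -0.76) and not with Cy5 (r = -0.28 and -0.03). Ratios of Esam, Egfl7, Cldn5 and Tbx2 also had a stronger r with Cy3 (-0.68 to -0.43) than with Cy5 (-0.01 to 0.33). The reverse held for Hopx, Elapor1, Chil1 and Gpx3, with r of 0.31 to 0.51 for Cy5 and -0.27 to 0.04 for Cy3.

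Other genes of type II cells and of surfactant handling were taken from fixed lists. Counts of called genes in these and the later lists stand beside 2.06%, 0.353% and 6.85% of all expressed genes, in order of dose. Among 20 other type II cell markers, 1 was called higher at 18 µg, none at 54 µg and 1 higher at 162 µg. The former was Hc, complement component 5, with a log2 fold change of 0.68 (adjusted p = 0.0318). The latter was Ctsh, cathepsin H, a lysosomal protease that processes surfactant proteins B and C, with 1.05 (adjusted p = 0.00086). The list's median was 0.15, -0.09 and 0.02 at the 3 doses. None of 22 genes of surfactant lipid synthesis was called at any dose, with medians of -0.07, -0.04 and 0.03. Among them Fasn, fatty acid synthase, had -0.13, 0.14 and 0.12, and Pcyt1a, the enzyme that sets the rate of phosphatidylcholine synthesis, -0.26, -0.13 and -0.11.

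Among 21 genes of the lamellar body, of secretion and of clearance, none was called at 18 or 54 µg. The share of all expressed genes called at 162 µg was 6.85%. At 162 µg P2ry2, the purinergic receptor through which ATP triggers surfactant secretion, was higher by 1.00 (adjusted p = 0.00692), and Abcg1, the sterol exporter of macrophages, was lower by -0.60 (adjusted p = 0.0104). Adgrf5, a receptor that restrains the surfactant pool, had 0.84 at 162 µg and did not pass (adjusted p = 0.0664). Of 15 alveolar transcription factors 1 was called, Foxa1, a forkhead factor of lung epithelium, which was lower at 162 µg by -1.05 (adjusted p = 0.0201). Its relative Foxa2 had -0.42 (adjusted p = 0.470), and Gata6 -0.03 (adjusted p = 0.979).

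Markers of other lung cells were measured on the same arrays, on which 2.06%, 0.353% and 6.85% of all expressed genes were called in order of dose. In the airway lists, club cell markers had medians of -0.62, -0.55 and -0.65 and ciliated cell markers -1.01, -0.28 and -0.87 at 18, 54 and 162 µg. Of 7 club genes 1 was called lower at 18 µg and 1 at 54 µg, both times Upk3a, and 2 at 162 µg, Upk3a with -1.11 (adjusted p = 0.000333) and Cyp2f2 with -1.0 (adjusted p = 0.0051). Scgb1a1, the defining club cell secretoglobin, had -0.17, -0.51 and -0.36 and was not called. Of 8 ciliated genes 2 were called lower at 162 µg, Rsph1 with -1.45 (adjusted p = 0.00757) and Ccdc39 with -0.87 (adjusted p = 0.0373), and Foxj1, the factor that defines these cells, had -0.40 (adjusted p = 0.499). Both airway lists were thus at lower medians than the 10 surfactant genes at each dose, a difference that was not tested. Other lists lay nearer the 10 genes, whose medians were 0.20, -0.03 and 0.09, so this was not particular to them. Type I markers had medians of 0.17, 0.09 and 0.22, and endothelial markers 0.20, 0.01 and 0.06. Pan epithelial genes had -0.02, -0.01 and 0.17, and neutrophil markers -0.01, 0.19 and 0.64.

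For alveolar type I cells, Pdpn was called higher at 162 µg with 1.04 (adjusted p = 0.00668), 1 of 12 genes, whereas Ager had 0.14 and Aqp5 0.30. Of 11 pan epithelial genes Krt7 was called at 162 µg with 1.17 (adjusted p = 0.00156), and Epcam had 0.41 and Cdh1 -0.12. Of 11 neutrophil genes 1 was called, Il1r2 at 162 µg with 2.36 (adjusted p = 0.00749), while S100a8 had 0.27 and S100a9 0.64, and the list's mean log2 ratio spanned 1.30 to 3.79 in controls and 1.58 to 3.91 at 162 µg. Of 10 alveolar macrophage genes Chil3 was called higher at 18 µg with 1.73 (adjusted p = 0.0457) and Marco at 162 µg with 1.51 (adjusted p = 0.00459), and Abcg1, which is also on this list, was called lower at 162 µg. Siglecf, a further marker on this list, had -0.61, -0.44 and -0.64, and Fabp1, a fatty acid binding protein, had -1.17, -0.39 and -1.50. Neither was called, and the list's medians were 0.20, -0.15 and 0.06. Of 8 endothelial genes Kdr was called higher at 18 µg with 0.65 (adjusted p = 0.048), and Pecam1 had 0.22, 0.01 and 0.33.

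**Figure D5:**
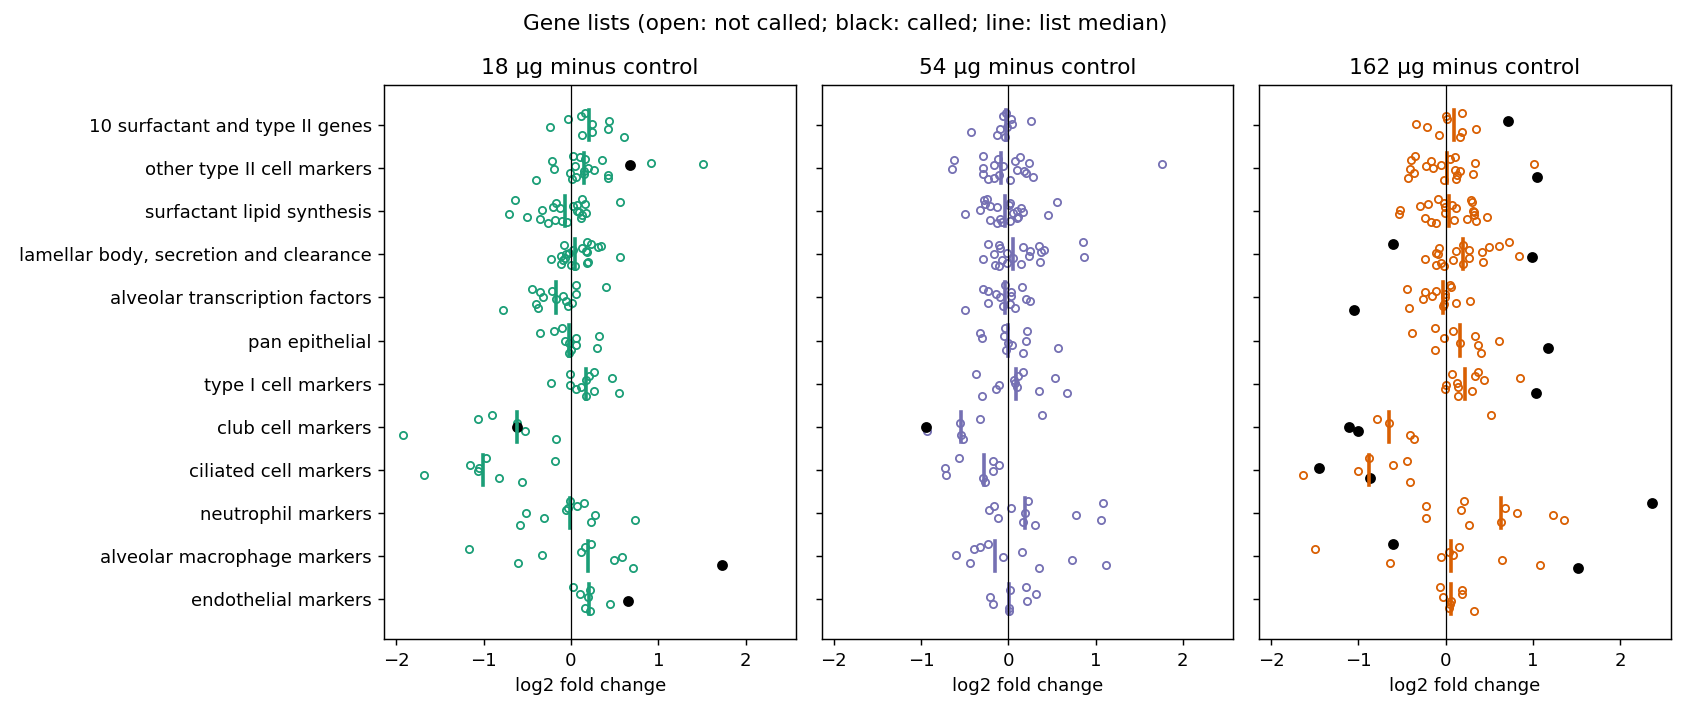
Log2 fold change against control (horizontal axis) of each gene of each list (vertical axis) at 18, 54 and 162 µg, with called genes in black, the others open and the list's median as a line. The 10 surfactant and type II genes run from -0.24 to 0.61 at 18 µg, from -0.42 to 0.26 at 54 µg and from -0.33 to 0.72 at 162 µg, where Napsa is called, and the ciliated list has medians of -1.01, -0.28 and -0.87.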

How the data were processed

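Right lung RNA of 22 mice was hybridised to dual-colour Agilent arrays. The authors deposited scanner files (Feature Extraction 10.7.3.1 in their headers) with intensity values, not normalized, of which the median signal of each spot was used without background subtraction. Their deposited log2 values per probe, with a normalization not given in the sources used here, served as an alternative.

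Outlier spots were left out, log2 ratios of Cy5 to Cy3 were normalized by loess within each array (span 0.3), and replicate spots were summarised by their median. RefSeq accessions named 26413 probes of 20018 genes, and a gene was represented by its brightest probe. Fits used limma 3.58.1 in R 4.3.3 over all 22 arrays, with dose and slide as fixed effects and 12 residual degrees of freedom. P values were adjusted over 55681 probes (Benjamini-Hochberg). A call required an adjusted p no higher than 0.05, 1.5-fold or more, and expression. A probe was expressed if its Cy5 signal exceeded the trimmed mean (5%) of 308 negative control spots by 3 trimmed SD in 80% or more of the mice of 1 group. The fit was tested on simulated data.

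The genes and lists were chosen with earlier results of these data known. Genes are named by a fixed rule: the 10 genes, the called genes and defining markers of each list, and the 10 genes most alike by Pearson r over 22 arrays. Some further list genes (Fasn, Pcyt1a, Adgrf5, Foxa2, Gata6) were named after their values were seen. In all, 4 list genes had no probe by accession and were not used here. Channels were scaled to the 75th percentile after the ratios were seen. Normexp correction (offset 50) used median signals. The number of arrays limits the precision. Other alternatives were other scalings, slide terms, filters and thresholds, and leaving out each mouse.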

Additional observations from a re-analysis of the deposited data

Results flagged for a closer look

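Within groups of 4 to 6 mice, the log2 ratio of each of the 10 genes was examined for a mouse far from the others, and 2 of 40 groups held one, where chance alone gives about 1 in 20. For Sftpc at 162 µg, replicate 6 stood at 9.48 and the nearest of the other mice at 7.85 (n = 5). Without that mouse the log2 fold change of Sftpc at 162 µg was -0.08 in place of 0.19 and was not called in either fit (adjusted p = 0.954 and 0.878 in limma). For Abca3 at 162 µg, the same mouse stood at 2.60 and the nearest at 3.28 (n = 6). Without it the log2 fold change of Abca3 at 162 µg was -0.14 in place of -0.21, not called in either fit (adjusted p = 0.749 and 0.568). The array of this mouse had the lowest median Cy5 signal of all (82), 53.5% of its probes lay above background, and its slide held no control. The cause of these values was not tested.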

How the results depend on the processing

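Results were recomputed under 18 alternatives and with each of 22 mice left out. No gene was called at 18 or 54 µg under any of them. At 162 µg the number called fell from 1 to 0 with median centring (Napsa 0.39), without normalization (0.37), in Cy5 alone (0.71) and in the deposited log2 table (0.69, adjusted p = 0.0587), and ranged from 0 to 1 with single mice left out (Napsa 0.60 to 0.87). Over the 18 alternatives the log2 fold change of Napsa at 162 µg ran from 0.37 to 0.88 with adjusted p from 0.00971 to 1. It was called in 14, but several of these left its value of 0.72 unchanged by construction, since Napsa had 1 probe and no spot was saturated. All alternatives that lost the call used another scaling of the arrays. At 162 µg against 18 µg the number called rose from 0 to 1, the gene being Lamp3, without a slide term (-0.62, adjusted p = 0.0472), with slide as a random block (-0.60, adjusted p = 0.0201), with the replicate number as a block (-0.62, adjusted p = 0.00322) and without the fold threshold (-0.57). It ranged from 0 to 1 with single mice left out, and became 1 without mice 3 (-0.64) or 6 (-0.65) of the 18 µg group or mice 3 (-0.63) or 4 (-0.64) of the 162 µg group. The difference of Lamp3 was smaller, at -0.38 with median centring (adjusted p = 0.924), -0.23 without normalization (0.942), -0.38 in Cy5 alone (0.252) and -0.50 in the deposited table (0.121), and with single mice left out its adjusted p ran from 0.0121 to 0.132. The median log2 fold change of the 10 genes at 18 µg was -0.19 with median centring and -0.36 without normalization, and with single mice left out it ranged from 0.07 to 0.33 at 18 µg, from -0.08 to 0.12 at 54 µg and from -0.00 to 0.24 at 162 µg. The cause of these changes was not tested.

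Replicate numbers were not taken to pair the samples, although 20 of 31 pairs of mice with the same number had a correlation above 0.1. The median over the 31 pairs was 0.17, against -0.06 for 150 pairs with other numbers (40 above 0.1), so mice with the same number were more alike. Of the 31 pairs, 11 shared a slide, and what the others share was not tested. Besides Lamp3, the replicate block changed no call. Of 719 gene values under the alternatives, 92 differed in sign from the reported value, none of them the called value of Napsa at 162 µg. Of these, 22 arose without normalization, where the medians of all expressed genes moved to -0.42, 0.13 and -0.21 in order of dose, and 14 with median centring, where they moved to -0.26, -0.04 and -0.18, so these signs are not relative to other genes. Sftpd at 54 µg could not be fitted with only the 2 groups compared. With no saturated spots, leaving such spots out gave the reported values. Standard errors of 0.15 to 0.36 limit what these arrays can show.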
